A study of Mus musculus with 35 samples.

Results

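The effect of a JNK inhibitor on the transcriptome of NMuMG cells was measured after 96 h of treatment, as the difference between inhibitor and vehicle libraries that carry the same replicate number. All genes with a mean normalized read count of at least 10 in either group were tested, which kept 12586 of the 20261 genes in the table. Of these, 12282 reached the minimum in both groups, 214 only with JNKi and 90 only with DMSO. At the edge of the filter, 2010001E11Rik (means of 8.45 with JNKi and 10 with DMSO) was kept and Spo11 (means of 9.95 with JNKi and 6.8 with DMSO) was left out. The JNKi group had 2 libraries and the DMSO group had 2. NMuMG cells are epithelial cells first grown from normal mammary gland of the mouse; the labels give them as WT and enter E9 as their strain. JNKi is the labels' only name for the inhibitor, with neither compound nor dose. A treatment note attached to every sample describes TGF-β at 2 ng/ml, renewed with the medium every 2 days, and the titles of both groups place them in an EMT series, so the comparison is between inhibitor and vehicle and has no arm stated to lack TGF-β. The series held 35 samples; 20 of them were JNKi or DMSO libraries, 2 for each agent and time (24, 48, 72 and 96 h, and 7 days).

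JNK kinases are stress-activated MAP kinases that phosphorylate Jun and related members of the AP-1 family, which bind short DNA elements near growth, matrix-protease and cytokine genes. TGF-β drives NMuMG cells through an epithelial-mesenchymal transition (EMT), in which cell-cell junctions are taken apart and stress fibres, focal adhesions and extracellular matrix are built. Many genes of the stress fibre are targets of serum response factor (SRF), which acts with actin-sensing myocardin-related cofactors and binds a DNA element called the CArG box.

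The 96 h libraries held 43.8 and 34.9 M reads with JNKi (replicates 1 and 2), against 42.8 and 32.5 M reads with DMSO. The 20 JNKi and DMSO libraries held 9.5 to 48.6 M reads, the lowest being replicate 1 of JNKi at 7 days. More genes were above 0 with JNKi (16963 and 16501) than with DMSO (16332 and 16051). Nothing in the labels ties replicates to separate cultures; the p-values cover the spread among these libraries alone, and that spread may be technical. Epithelial identity was checked with 11 markers, of which 8 were tested, and Epcam was listed at 0 in all 4 libraries. The 8 had a median log2 difference of 0.04, with 4 negative and 4 positive, and 0 passed the test. The summed level of the 11 was 135106.6 and 127946.8 with JNKi, against 158528.9 and 146505.9 with DMSO. Most of that sum came from Krt8 and Krt18 (59279.6 and 61336.2 in JNKi replicate 1), so it says little of the other markers. None of the tested basal, fibroblast, leukocyte or endothelial markers passed, and Lum, Tyrobp and Emcn were listed at 0. Whether fewer cells of a state or less RNA per cell lay behind a difference cannot be told apart in bulk RNA.

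With JNKi, 46 genes were higher (0.365% of those tested) and 58 were lower (0.461%), together 104 genes (0.826%) at an adjusted p under 0.05 (limma with the replicate number as a block, Benjamini-Hochberg over all genes tested). The count rests on that block: without it only Sprr2h passed (0.00795%), and 624 genes had an unadjusted p under 0.05, against 1557 with the block. It rests also on letting the spread depend on the level, since limma without that trend called 3 genes. Leaving out the 7-day libraries gave 364 genes, leaving out replicate pair 1 of 96 h gave 10 and pair 2 gave 41, and edgeR with the block called 197. Each of the 104 genes had the same sign in both replicate pairs. The test chose them from these same differences, so that agreement is no separate support. In 102 of them the JNKi and DMSO libraries did not overlap; over all genes tested, both JNKi libraries were above both DMSO libraries in 19.3% and below them in 20.9%. The differences were small. Among the higher genes the median log2 difference was 0.77, from 0.33 to 1.63, and 14 were at least 2-fold higher. Among the lower genes the median was -0.44, from -0.29 to -0.76, and 0 were at least 2-fold lower. Over all genes tested the median was 0, with quartiles at -0.09 and 0.09.

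The 2 sets also lay at different levels. The higher genes had a median level of 309 normalized read counts and the lower genes one of 7120, beside 833 over all genes tested. Of the higher genes 33 lay below the all-gene median, and of the lower genes 3.

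**Figure D1:**
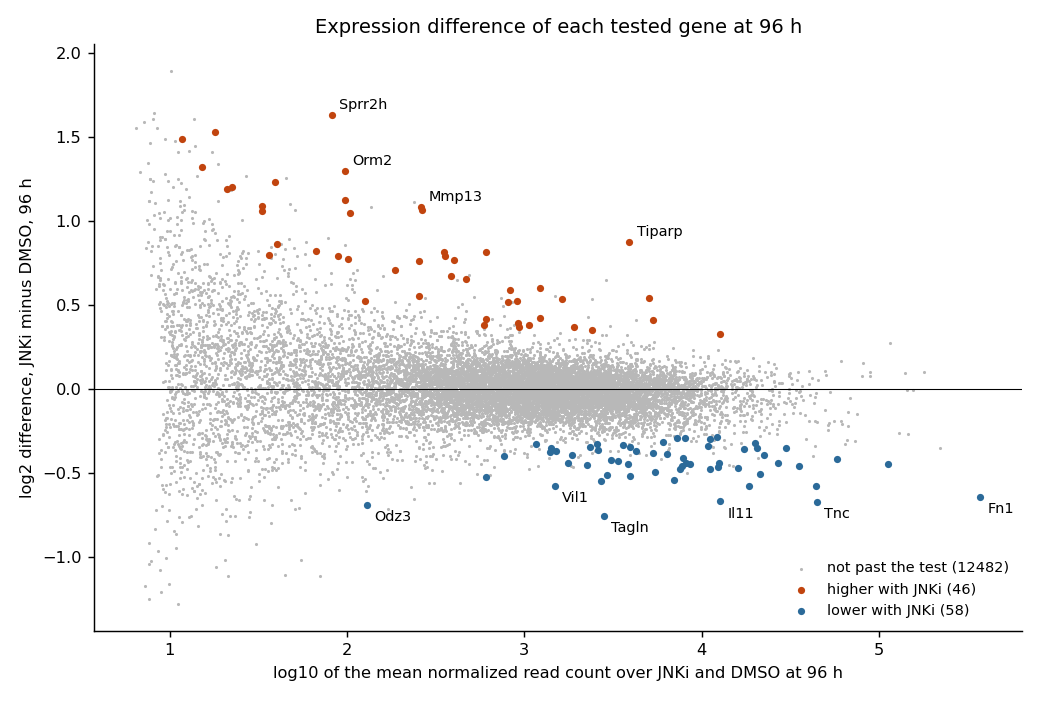
Each point is 1 of the genes tested at 96 h, with its mean normalized read count over the 4 libraries on a log10 axis and its log2 difference (JNKi minus DMSO) on the vertical axis. The 46 genes past the test that were higher with JNKi lie mostly at low levels, and the 58 lower genes lie mostly at high levels with small differences.

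Stress-fibre and actin-binding genes were the group with the most genes past the test among the lists examined. Of 23 tested members of the SRF and contractile list, 9 fell (Tagln, Csrp1, Vcl, Flna, Cnn2, Srf, Fhl2, Zyx and Pdlim7) and 0 rose. Over all genes tested 0.461% fell and 0.365% rose, and the list counts that follow stand beside these shares. The list's median log2 difference was -0.29, beside 0 over all genes tested, and 20 of its members were negative. Tagln, whose product transgelin binds and gels actin, had 1947 and 2228 normalized read counts with JNKi (replicates 1 and 2), against 3162 and 3926 with DMSO. Its log2 difference of -0.76 (SE 0.11, adjusted p = 0.00491) was the largest fall of the 58 genes. Srf itself had 2795 and 2961 with JNKi, against 3886 and 3869 with DMSO (log2 difference -0.43, SE 0.06, adjusted p = 0.0076). Vcl, which encodes vinculin, the protein that links focal adhesions to actin, had 11238 and 9507 with JNKi, against 15611 and 12997 with DMSO (-0.46, SE 0.07, adjusted p = 0.00763). Cnn2, a calponin, had 7027 and 6783 with JNKi, against 9626 and 9166 with DMSO (-0.44, SE 0.09, adjusted p = 0.0268). In each of these 4 genes both JNKi libraries lay below both DMSO libraries, as they did in 20.9% of all genes tested.

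The other 5 fell by similar amounts. The actin cross-linker Flna had 99280 and 90899 with JNKi, against 131876 and 127149 with DMSO (log2 difference -0.45). Csrp1, a LIM-domain protein of the actin cytoskeleton, fell by 0.49 on the log2 scale and Fhl2, a LIM-domain cofactor, by 0.38. The focal-adhesion protein Zyx fell by 0.35 and the PDZ-LIM protein Pdlim7 by 0.29. The other tested members of the list did not pass, and most of them were negative. Over the whole list 20 were negative and 3 positive. Acta2, smooth-muscle actin, had 758 and 627 with JNKi, against 466 and 584 with DMSO (0.40, adjusted p = 0.318), and did not pass. Cnn1 had 41.7 and 40.4 with JNKi, against 142.6 and 56.7 with DMSO (-1.11, adjusted p = 0.178); its DMSO libraries differed from each other by more than replicate 2 differed between the groups. Myh9, the heavy chain of non-muscle myosin, had 123172 and 111592 with JNKi, against 137465 and 143588 with DMSO (-0.26, adjusted p = 0.207).

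Promoter windows of 3 of these genes are shown because each holds a match to the CArG box, printed in capitals. The windows are the 250 bases before the RefSeq start (build GRCm38.p6), written 5′ to 3′ on the gene's strand. In Srf the 2 matches begin 82 and 62 bases before the start, in Vcl the match begins 227 bases before it, and in Cnn2 it begins 56 bases before it.
Srf (chr17:46556163-46556412, minus strand): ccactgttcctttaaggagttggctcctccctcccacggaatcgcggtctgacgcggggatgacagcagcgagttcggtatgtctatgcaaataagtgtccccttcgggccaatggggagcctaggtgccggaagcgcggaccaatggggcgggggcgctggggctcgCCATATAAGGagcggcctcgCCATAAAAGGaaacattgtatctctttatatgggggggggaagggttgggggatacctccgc
Vcl (chr14:20929148-20929397, plus strand): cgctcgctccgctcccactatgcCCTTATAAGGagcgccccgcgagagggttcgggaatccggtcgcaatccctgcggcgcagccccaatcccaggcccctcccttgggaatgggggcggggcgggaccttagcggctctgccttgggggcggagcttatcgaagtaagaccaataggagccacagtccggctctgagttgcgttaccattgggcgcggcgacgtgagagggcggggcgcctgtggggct
Cnn2 (chr10:79988350-79988599, plus strand): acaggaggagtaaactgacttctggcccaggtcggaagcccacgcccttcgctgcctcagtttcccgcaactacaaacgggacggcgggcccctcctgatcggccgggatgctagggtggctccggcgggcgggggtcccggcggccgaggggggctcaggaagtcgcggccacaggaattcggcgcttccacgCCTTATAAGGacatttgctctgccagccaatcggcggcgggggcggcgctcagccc

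Over windows that run from 250 bases before to 50 after the start, 4 of the 8 lower SRF and contractile genes with a RefSeq window held a CArG box on either strand (50%). It was held by 4 of 21 tested list members (19%) and by 9 of 45 lower genes with a window (20%): Alpk1, Cnn2, Fhl2, Filip1l, Myadm, Srf, Tmem63a, Vcl and Vil1. Of the 36 higher genes with a window, 2 held it (5.56%), and of all 9927 tested genes with a window, 153 held it (1.54%). This motif was added after the values were seen, and a match is a run of letters, not a measured binding site. The list was itself drawn up around SRF, which binds this element, so the list's shares are no separate support.

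Basement-membrane genes fell in 5 of 18 tested cases and rose in 0, with a median log2 difference of -0.24. The list as a whole went both ways, with 11 negative and 7 positive members, from -0.58 to 0.82. Over all genes tested 0.461% fell and the median was 0. Col4a1 and Col4a2 encode the chains of the main type IV collagen network. Col4a1 had 35511 and 35544 normalized read counts with JNKi, against 53490 and 52432 with DMSO (log2 difference -0.58, SE 0.08, adjusted p = 0.00491). Col4a2 had 17451 and 17826 with JNKi, against 24496 and 25719 with DMSO (-0.51, SE 0.08, adjusted p = 0.00898). The differences in the 2 pairs were close to each other for both genes, at -0.59 and -0.56 for Col4a1 and -0.49 and -0.53 for Col4a2. The laminin chain Lama5 had 30532 and 28960 with JNKi, against 43175 and 38689 with DMSO (-0.46, SE 0.06, adjusted p = 0.00491). Lamb2, another laminin chain, fell by 0.41 and Hspg2, which encodes perlecan, fell by 0.47, although it was higher with JNKi at 24 h (log2 difference 0.56, adjusted p = 0.0197). Agrn, which encodes agrin, had 59273 and 55197 with JNKi, against 78734 and 65250 with DMSO, and did not pass (-0.33, adjusted p = 0.0991).

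Among 33 tested genes of the fibrillar and other matrix list, 5 fell and 0 rose, and the median was -0.23 with 28 negative members. Beside this, 0.461% of all genes tested fell and their median was 0. Fn1 encodes fibronectin, a matrix glycoprotein widely used as an EMT marker. It had 289897 and 289609 with JNKi, against 482266 and 425386 with DMSO (log2 difference -0.64, SE 0.13, adjusted p = 0.0233). Tnc, the matricellular protein tenascin C, had 36153 and 32690 with JNKi, against 53693 and 55818 with DMSO (-0.67, SE 0.09, adjusted p = 0.00491). Thbs1, thrombospondin 1, had 52764 and 45978 with JNKi, against 65591 and 66099 with DMSO (-0.42). Col18a1 fell by 0.44 and Col7a1, the anchoring-fibril collagen, by 0.45. Both JNKi libraries were below both DMSO libraries in all 5, which the test had chosen, and in 20.9% of all genes tested. The 8 fibroblast markers summed to 1158 and 976 with JNKi, against 1088.0 and 1351 with DMSO, so their groups overlapped. Matrix-associated genes outside these lists, named after their values were seen, went both ways. Tgm2, a transglutaminase that cross-links matrix proteins, fell by 0.39, and Pcolce, an enhancer of procollagen processing, by 0.35. Tinag, a basement-membrane protein, had 142.7 and 115.7 with JNKi, against 75.7 and 73.6 with DMSO, and rose (0.78, adjusted p = 0.0185). The similarly named Tinagl1, at a higher level, had 6510 and 6572 with JNKi, against 9509 and 8539 with DMSO, and fell (-0.46, adjusted p = 0.0137). Fbln2, fibulin 2, had 190048 and 199361 with JNKi, against 244184 and 252107 with DMSO, and did not pass (-0.35, adjusted p = 0.145). Of the TGF-β signalling list 2 of 33 genes fell, Ltbp3 (-0.32) and Ltbp4 (-0.37), both of which encode proteins that hold latent TGF-β in the matrix.

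**Figure D2:**
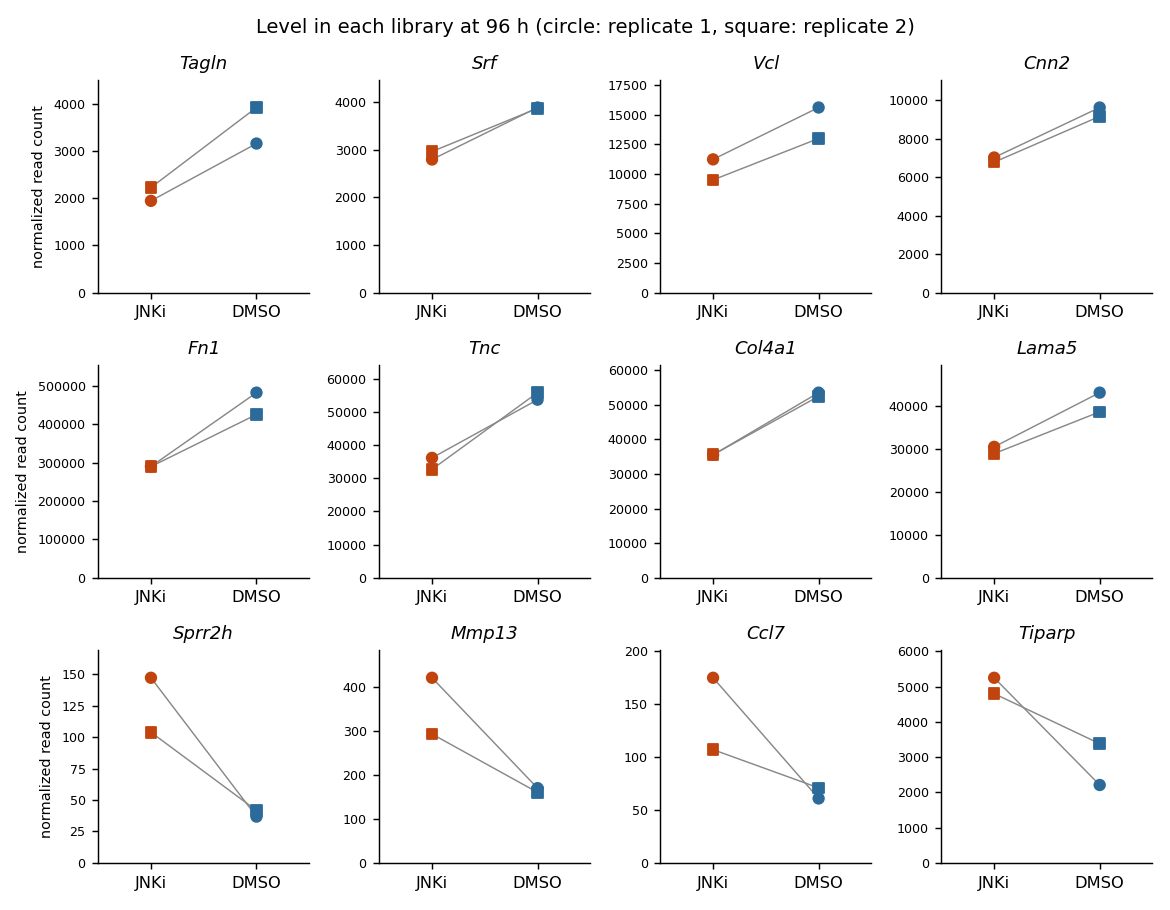
Normalized read counts of 12 genes in each library at 96 h, on linear axes that start at 0, with JNKi on the left and DMSO on the right; circles are replicate 1, squares replicate 2, and lines join libraries with the same replicate number. In the upper 2 rows both JNKi libraries lie below both DMSO libraries, and in the lowest row both lie above. The 12 genes were picked among those past the test.

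Of 26 tested integrin and adhesion genes 1 fell and 0 rose, and the list's median was -0.01. That gene was Itga5, the integrin subunit of the fibronectin receptor. It had 9515 and 8931 with JNKi, against 11389 and 14465 with DMSO (log2 difference -0.48, adjusted p = 0.0118). Further lower genes, which stand on no list and of which Bcar1, Tln1 and Tenc1 were picked after their values were seen, encode proteins found at focal adhesions or caveolae. The adaptor Bcar1 (p130Cas) had 6450 and 6202 with JNKi, against 9705 and 7979 with DMSO (-0.48). Talin (Tln1) fell by 0.36, tensin 2 (Tenc1) by 0.39, and the PINCH-family protein Lims2 by 0.53. Cav1, the coat protein of caveolae, had 3138 and 3249 with JNKi, against 4136 and 3934 with DMSO (-0.34, adjusted p = 0.0109). Actin-linked genes among the largest falls were Sorbs2 (-0.54), an adaptor of actin structures, and Vil1 (-0.58), which encodes the microvillus protein villin. Vil1 had 1255 and 1112 with JNKi, against 2076 and 1498 with DMSO.

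Il11, a cytokine of the IL-6 family, had 9568 and 9922 with JNKi, against 13133 and 18283 with DMSO (log2 difference -0.67, SE 0.11, adjusted p = 0.00956). The DMSO libraries of Il11 differed more from each other than the JNKi libraries did. Plaur, the urokinase receptor, had 10453 and 10805 with JNKi, against 14550 and 14297 with DMSO (-0.44). Erbb2, a receptor of the EGF family, fell by 0.33, Ifngr1, a chain of the interferon-γ receptor, by 0.45, and Phlda1 by 0.43. Akap12, a scaffold for protein kinases, had 16499 and 12869 with JNKi, against 26704 and 17720 with DMSO (-0.58). The remaining large falls were Odz3 (-0.69), a teneurin, Siglecg (-0.55), a sialic-acid-binding lectin, and Esyt1 (-0.52), a protein of membrane contact sites. Odz3 had 104.8 and 93.5 with JNKi, against 157.3 and 163.1 with DMSO, and was the lowest in level of the 58 genes.

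Of the JNK pathway itself 1 gene passed. Dusp1, a phosphatase that removes the activating phosphates from JNK and p38, had 2690 and 2084 with JNKi, against 3981 and 2863 with DMSO (log2 difference -0.51, SE 0.08, adjusted p = 0.00898). It was 1 of 25 tested JNK cascade genes, whose median was -0.02. Mapk8, which encodes JNK1, had 981 and 1015 with JNKi, against 960 and 1023 with DMSO (0.01, 95% interval -0.18 to 0.20, adjusted p = 0.979). Mapk9, which encodes JNK2, had 2201 and 2041 with JNKi, against 1940 and 1994 with DMSO (0.11, interval -0.03 to 0.25, adjusted p = 0.547). Transcript levels of the kinases say nothing of their activity. Mapk11, a p38 kinase, fell by 0.33.

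None of 16 tested AP-1 and ATF genes passed, and their median was -0.03. Jun, the substrate that gives the kinase its name, had 2213 and 2565 with JNKi, against 2203 and 3138 with DMSO (log2 difference -0.14, interval -0.32 to 0.03, adjusted p = 0.529). Junb had 15716 and 16132 with JNKi, against 14440 and 19425 with DMSO (-0.07, adjusted p = 0.806). For both, JNKi was slightly above DMSO in replicate 1 and below it in replicate 2. Of 23 tested immediate-early genes, which answer growth signals within minutes, Dusp1 and Srf fell and the median was -0.15.

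EMT transcription factors and junction genes did not pass. Of 10 tested EMT factors 0 did, with a median of -0.02. Snai1 had 316 and 366 with JNKi, against 241 and 410 with DMSO, so its groups overlapped (log2 difference 0.11, interval -0.13 to 0.36). Zeb1 had 2461 and 2342 with JNKi, against 2526 and 2830 with DMSO (-0.16, adjusted p = 0.404), and Zeb2 had 1601 and 1613 with JNKi, against 1566 and 1694 with DMSO (-0.02, interval -0.20 to 0.16). Of 30 tested epithelial junction and polarity genes 0 passed, with a median of -0.02. Cdh1, E-cadherin, had 8279 and 7045 with JNKi, against 10992 and 7394 with DMSO (-0.24, interval -0.43 to -0.05, adjusted p = 0.283). Cdh2, N-cadherin, had 13747 and 13752 with JNKi, against 17253 and 15738 with DMSO (-0.26, interval -0.44 to -0.08, adjusted p = 0.178). Both cadherins were lower with JNKi in each pair. Vim, the mesenchymal intermediate filament vimentin, had 35179 and 32655 with JNKi, against 38243 and 36562 with DMSO (-0.14, adjusted p = 0.541).

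The largest rise among the 46 higher genes was that of Sprr2h, and Orm2 had the next largest among genes with a mean level of at least 50; the rises of Mrc1, Nqo1 and S100g lay between them at lower levels. Sprr2h, a small proline-rich protein of the cornified envelope, had 147.1 and 103.8 normalized read counts with JNKi, against 36.8 and 41.7 with DMSO. Its log2 difference of 1.63 (SE 0.17, adjusted p = 0.00125) corresponds to a 3.1-fold higher level. Sprr1a, of the same family, had 849 and 668 with JNKi, against 597 and 306 with DMSO (0.82, SE 0.14, adjusted p = 0.0105). These were the only 2 of 10 tested cornified-envelope genes past the test. The list's median was -0.01, with 5 negative and 5 positive members. Orm2, an acute-phase orosomucoid, had 153.4 and 122.0 with JNKi, against 45.5 and 66.5 with DMSO (1.30, SE 0.26, adjusted p = 0.0247). Its neighbour in sequence Orm1 had 349.8 and 260.7 with JNKi, against 209.6 and 201.3 with DMSO (0.55, adjusted p = 0.0469). Serpina1b, an α1-antitrypsin gene, had 162.3 and 105.4 with JNKi, against 72.3 and 48.8 with DMSO (1.13, SE 0.20, adjusted p = 0.0145). Slpi, a secreted protease inhibitor of epithelia, had 125.7 and 99.1 with JNKi, against 82.4 and 49.7 with DMSO (0.79). Sprr2, Orm and Serpina1 genes have near-identical copies, so the counting may have divided reads among them.

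Mmp13, a collagenase, was the only gene that rose among 26 tested matrix proteases and inhibitors. It had 421 and 293 with JNKi, against 170 and 160.5 with DMSO (log2 difference 1.08, SE 0.18, adjusted p = 0.00956). The list of 32 tested NF-kB cytokines and chemokines had a median of 0.18; Ccl7 and Cxcl1 rose and Il11 fell. Ccl7, a monocyte chemokine, had 174.9 and 107.0 with JNKi, against 60.9 and 70.9 with DMSO (1.05, SE 0.23, adjusted p = 0.0489). Cxcl1, a neutrophil chemokine, had 1166 and 710 with JNKi, against 882 and 458 with DMSO (0.52, adjusted p = 0.0143). Cxcl1 was higher in each pair although its groups overlapped, because replicate 1 was the higher library in both groups. The chemokine precursor Ppbp had 535 and 369 with JNKi, against 315 and 208 with DMSO (0.79, adjusted p = 0.00491). Tnip3, which encodes an A20-binding inhibitor of NF-kB, had 62.5 and 41.2 with JNKi, against 36.8 and 20.4 with DMSO (0.86).

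Mmp13 and Sprr2h are shown because their windows hold the AP-1 element, TGACTCA or TGAGTCA, in capitals (250 bases before the RefSeq start, GRCm38.p6). The match begins 35 bases before the start in Mmp13 and 198 before it in Sprr2h.
Mmp13 (chr9:7272264-7272513, plus strand): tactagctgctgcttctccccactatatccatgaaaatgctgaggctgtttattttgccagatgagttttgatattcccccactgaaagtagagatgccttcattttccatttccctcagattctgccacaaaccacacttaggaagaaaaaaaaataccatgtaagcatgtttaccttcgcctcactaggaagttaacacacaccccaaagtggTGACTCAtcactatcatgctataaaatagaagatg
Sprr2h (chr3:92385435-92385684, plus strand): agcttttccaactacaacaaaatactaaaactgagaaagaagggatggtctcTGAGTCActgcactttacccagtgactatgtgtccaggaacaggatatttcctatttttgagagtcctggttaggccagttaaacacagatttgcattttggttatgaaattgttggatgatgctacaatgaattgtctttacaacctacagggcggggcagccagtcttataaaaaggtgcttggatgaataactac

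The AP-1 element was searched on both strands in windows from 250 bases before to 50 after the start. It was held by 8 of 36 higher genes with a window (22.2%): 5730469M10Rik, A630095E13Rik, Glyat, Il5ra, Mmp13, Serpina1b, Sprr1a and Sprr2h. It was held by 4 of 45 lower genes (8.89%), Il11, Ltbp3, Plaur and Zyx, and by 495 of 9927 tested genes (4.99%). The cyclic-AMP element TGACGTCA was in 0 of 36 higher genes, 1 of 45 lower genes (2.22%) and 3.68% of tested genes. The TEAD element GGAATG was in 11.1% of higher, 15.6% of lower and 14.7% of tested genes. The SMAD element GTCTAGAC was in none of the higher or lower genes and in 0.302% of tested genes. Nothing about the factors follows from these letters.

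Tiparp, a target of the aryl hydrocarbon receptor that encodes an ADP-ribosyltransferase, had 5254 and 4804 with JNKi, against 2211 and 3383 with DMSO (log2 difference 0.88, SE 0.16, adjusted p = 0.0145). Nqo1, a quinone reductase, had 19.6 and 15.8 with JNKi, against 6.0 and 5.3 with DMSO (1.49, SE 0.25, adjusted p = 0.0109), and it reached the minimum level only with JNKi. They were 2 of 8 tested aryl hydrocarbon receptor targets, whose median was 0.36. Cyp1b1, another target, had 3960 and 3081 with JNKi, against 2305 and 2154 with DMSO, and did not pass (0.65, adjusted p = 0.0631). Of 23 tested oxidative-stress genes Nqo1, Gclm and Fth1 rose, and the median was 0.08. Gclm, a subunit of the enzyme that starts glutathione synthesis, had 2259 and 2031 with JNKi, against 1653 and 1672 with DMSO (0.37), and the ferritin heavy chain Fth1 had 14692 and 13433 with JNKi, against 11862 and 10600 with DMSO (0.33). Abcc2, an export pump for conjugated compounds, had 404 and 310 with JNKi, against 216 and 132.1 with DMSO (1.06, SE 0.14, adjusted p = 0.00491).

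Metabolic and other genes were also in the higher set, of which not every member is described here. Insig1, a sterol-regulated brake on cholesterol synthesis, had 619 and 524 with JNKi, against 329 and 399 with DMSO (log2 difference 0.65, adjusted p = 0.00956), and was the 1 of 26 tested cholesterol genes to rise (median 0.13, with 21 positive). Egln3, an oxygen-sensing prolyl hydroxylase, had 494 and 446 with JNKi, against 351 and 247 with DMSO (0.67), and Pfkfb3, an activator of glycolysis, had 2048 and 1792 with JNKi, against 1211 and 1439 with DMSO (0.54). The other 32 of 34 tested glycolysis and hypoxia genes did not pass and the list's median was -0.04. Ccng1, a p53-induced cyclin, had 6148 and 5975 with JNKi, against 4342 and 4792 with DMSO (0.41, adjusted p = 0.00763), and was the 1 of 32 tested p53 targets past the test. Padi2, a peptidylarginine deiminase, had 502 and 395 with JNKi, against 303 and 212 with DMSO (0.81). Fbxo32, a muscle-atrophy ubiquitin ligase, rose by 0.42 and the apical membrane proteolipid gene Mal by 0.54. The transcripts A630095E13Rik (1.23) and 4931408D14Rik (0.82) also rose. Mrc1 and S100g, like Nqo1, were tested only because they reached the minimum level with JNKi, so their direction was fixed by the filter. Mrc1, the mannose receptor of macrophages, had 31.6 and 22.2 with JNKi, against 13.4 and 5.3 with DMSO (1.53). The summed level of 9 leukocyte markers was 1621 and 1343 with JNKi, against 1534 and 1142.0 with DMSO, and their part in the rise of Mrc1 was not tested. S100g, a calcium-binding protein, had 25.3 and 19.0 with JNKi, against 9.4 and 7.1 with DMSO (1.32). Clrn3 had 63.1 and 22.2 with JNKi, against 39.5 and 7.1 with DMSO (1.09, adjusted p = 0.0372), with a wider gap between replicates than between groups.

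Of the replication-dependent histone genes Hist1h2bc and Hist2h3c1 rose. Of 29 listed, 17 were tested, 4 of them because they reached the minimum level in 1 group alone; the 17 had positive log2 differences, with a median of 0.67. Hist1h2bc had 512 and 499 with JNKi, against 281 and 315 with DMSO (0.76, SE 0.13, adjusted p = 0.0134). Hist2h3c1 had 345 and 299 with JNKi, against 169.4 and 211 with DMSO (0.76, adjusted p = 0.0417). These genes have near-identical copies, and most of their transcripts lack a poly(A) tail; how RNA was selected is not given in the labels. DNA replication genes, which accompany histone genes in S phase, had a median of -0.10 with 0 of 48 past the test, and G2/M genes one of 0.08 with 0 of 44.

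**Figure D3:**
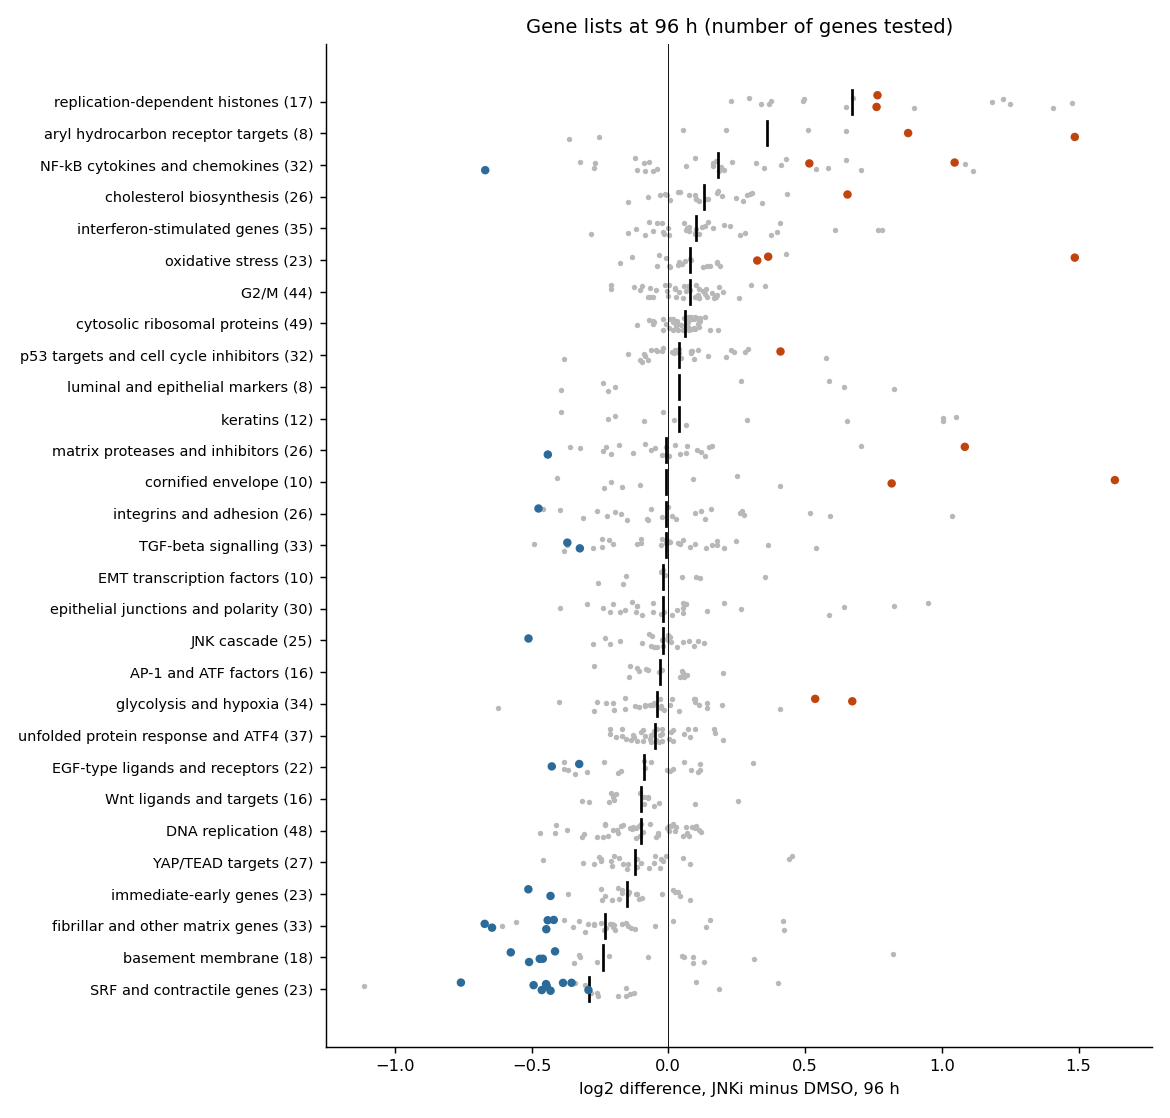
Each row is a gene list with at least 8 tested genes, each point a tested gene with its log2 difference at 96 h (JNKi minus DMSO) and each black tick the list's median; coloured points passed the test, blue when lower and orange when higher with JNKi. Blue points gather in the 3 lowest rows, which are the contractile, basement-membrane and fibrillar matrix lists.

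The remaining lists held few or no genes past the test. Of 27 tested YAP/TEAD targets 0 passed, with a median of -0.12 and 23 negative members; Ankrd1, an abundant member, had 69663 and 60236 with JNKi, against 84240 and 76860 with DMSO (-0.31, adjusted p = 0.115). None of 35 tested interferon-stimulated genes passed (median 0.10), nor any of 37 unfolded-protein-response genes (-0.05), 16 Wnt genes (-0.10), 49 ribosomal protein genes (0.06) or 12 keratins (0.04). Among keratins, Krt8 and Krt18 were -0.19 and -0.22. Of the 12 tested keratins, 3 reached the minimum level in 1 group alone. The basal keratin Krt5 had 18.3 and 19.8 with JNKi, against 9.4 and 8.0 with DMSO (1.05, adjusted p = 0.0619). Krt5 reached the minimum level only with JNKi, so its direction was fixed by the filter. Of 22 tested genes on the list of EGF-type ligands and receptors, Erbb2 and Phlda1 fell (median -0.09). Phlda1 stands on that list but is neither a ligand nor a receptor.

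The other times used separate libraries in the same model, so the differences of the 104 genes there do not reuse the 96 h values. All times share the model's estimate of spread, so the libraries of other times also had a part in choosing the genes. At 72 h, 43 of the 46 higher genes were again higher (93.5%) and 55 of the 58 lower genes again lower (94.8%), beside a same sign in 66.7% of all genes tested. At that time 23 of the 46 passed the test upward and 22 of the 58 downward, while 1.2% and 1.88% of all genes did so; Cav1 and Pdlim5 passed in the opposite direction. At 7 days 42 of the 46 were higher and 56 of the 58 lower, beside 59.5% over all genes. There 34 passed upward (13% of all genes) and 45 downward (15.1%), and the medians were 0.74 and -0.51; Tiparp and Cav1 passed in the opposite direction.

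At 48 h, 37 of the 46 were higher and 53 of the 58 lower, beside a same sign in 63.4% of all genes, with 5 past the test upward and 0 downward (0.159% and 0.00795% of all genes). At 24 h 32 of the 46 were higher (69.6%), but only 13 of the 58 lower genes were lower (22.4%), and their median was 0.11, above 0. At that time 2 of the 46 passed upward and 0 of the 58 downward (0.143% and 0.0238% of all genes); Hspg2 passed in the opposite direction, higher with JNKi at 24 h (log2 difference 0.56, adjusted p = 0.0197). Over all genes the sign was the same in 50%. In time order (24, 48, 72 and 96 h, then 7 days) the log2 difference of Fn1 was 0.16, -0.29, -0.42, -0.64 and -1.25. Tnc ran 0.23, -0.21, -0.70, -0.67 and -1.67 over the same times, and Tagln 0.25, 0.13, -0.13, -0.76 and -1.63. Srf ran -0.01, -0.16, -0.22, -0.43 and -0.77. Of the higher genes, Mmp13 ran 0.43, 1.35, 1.54, 1.08 and 2.24, and Sprr2h -0.27, 0.53, 2.18, 1.63 and 2.14.

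**Figure D4:**
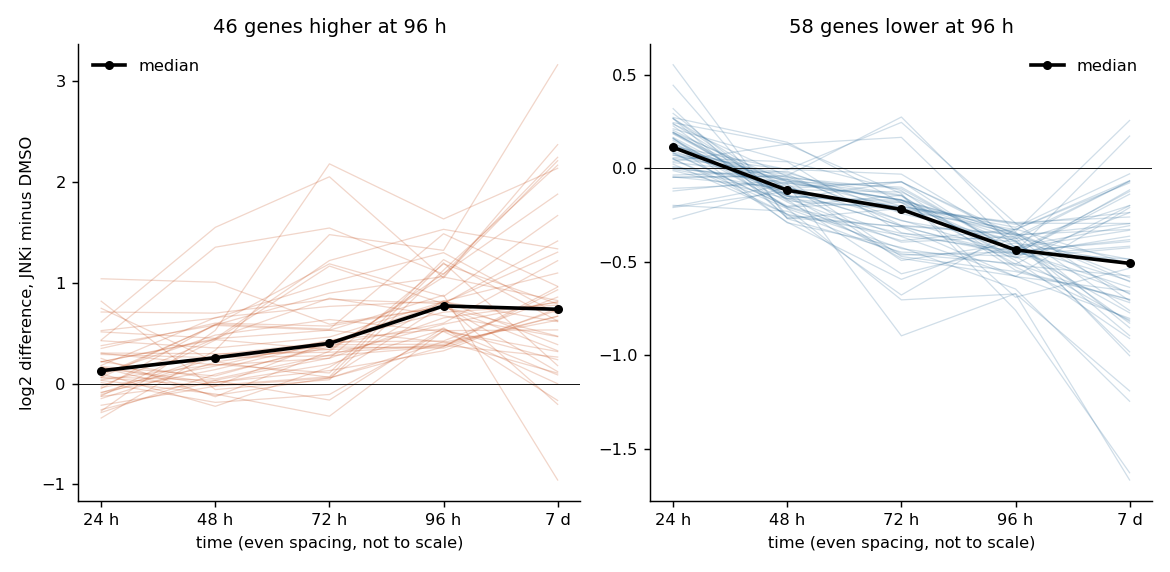
Log2 difference (JNKi minus DMSO) at 24, 48, 72 and 96 h and 7 days, with 1 thin line for each gene past the test at 96 h and the median in black; the 96 h values chose the genes. The median of the 58 lower genes is above 0 at 24 h and below 0 from 48 h on, and that of the 46 higher genes is above 0 at every time.

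The lower genes were mostly ones that rose with time in vehicle cells. Between 24 h and 72 h in DMSO, 45 of the 58 rose (77.6%) and 2 fell (3.45%). Over all genes tested, 25% rose and 24.7% fell (limma without a block, adjusted p under 0.05). The median log2 change of the 58 genes with time was 0.85. These libraries are not those of 96 h, but they entered the shared estimate of spread by which the 104 genes were chosen. Without the 24 h libraries 75 of the 104 passed at 96 h, and without the 72 h libraries 89 did. Of the 46 genes higher with JNKi, 28 fell with time in DMSO (60.9%) and 6 rose (13%), with a median of -0.86. Tagln rose by 6.08 on the log2 scale between 24 h and 72 h in DMSO, Tnc by 3.16 and Fn1 by 3.05, and all were lower with JNKi at 96 h. Sprr2h (-3.07), Serpina1b (-3.23) and Padi2 (-2.48) fell in DMSO, and all were higher with JNKi. Exceptions in the higher set were Ppbp (3.32), Hist2h3c1 (3.28), Ccl7 (1.34), Fbxo32 (1.21), Orm2 (1.10) and Hist1h2bc (1.07), which rose in DMSO and were higher with JNKi as well. Exceptions in the lower set were Cav1 (-0.65) and Tnnt2 (-0.56), which fell in DMSO and were lower with JNKi. Without TGF-β-free libraries in this table, time in culture and time in TGF-β cannot be told apart.

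**Figure D5:**
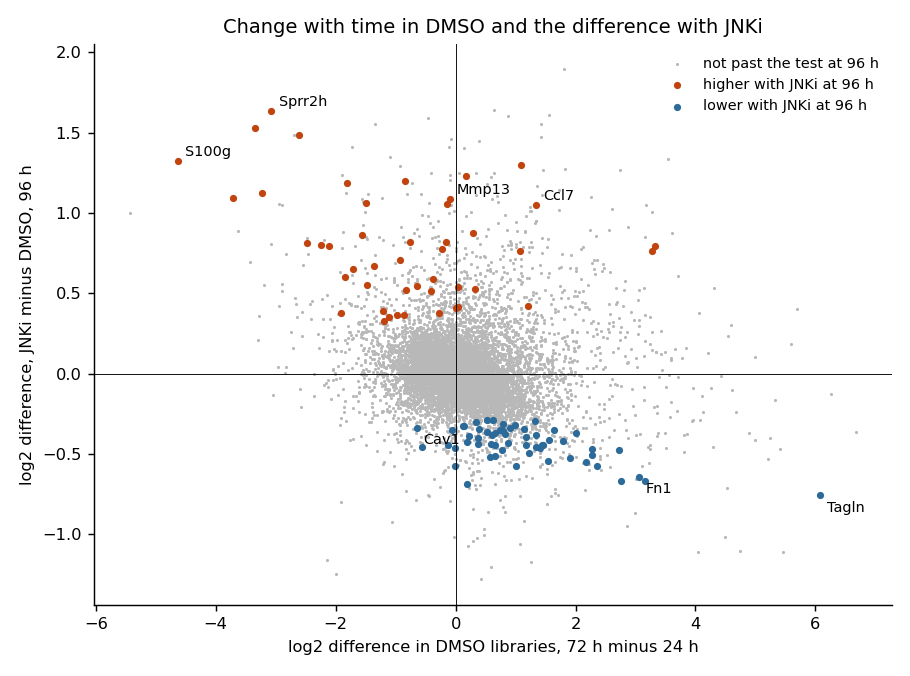
Each point is a tested gene, with its log2 change in DMSO libraries from 24 h to 72 h on the horizontal axis and its log2 difference at 96 h (JNKi minus DMSO) on the vertical axis; coloured points passed the test at 96 h. Most of the 58 lower genes (blue) lie to the right of 0 and most of the 46 higher genes (orange) to the left.

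The effect at 96 h differed from that at 72 h in 1 gene by the test of the difference (0.00795% of those tested). Cav1 was lower with JNKi at 96 h (-0.34) and higher at 72 h (0.28), a difference of -0.61 (adjusted p = 0.0247). Against 7 days the effect differed in 801 genes (6.36%), of which 368 (2.92%) were more positive and 433 (3.44%) more negative at 96 h. Of the 104 genes, 30 were among them: 21 had a larger effect of the same sign at 7 days, 3 a smaller one, and 6 one that was at or beyond 0 in the other direction. Tagln differed by 0.87 (adjusted p = 0.00571) and Tnc by 1.00 (adjusted p = 0.00106), both lower at 7 days. Without the block 0 genes differed from 72 h and 18 from 7 days; leaving out pair 1 or pair 2 of the 96 h libraries gave 135 or 338 genes against 7 days, and leaving out pair 2 of the 7-day libraries gave 1484. Tiparp was higher with JNKi at 96 h (0.88) and lower at 7 days (-0.96), a difference of 1.83 (adjusted p = 0.000864). The libraries of Tiparp at 96 h did not overlap between groups, but its pairs differed by 1.25 and 0.51.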

How the data were processed

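RNA of NMuMG cells was sequenced in JNKi and DMSO libraries, and groups, times and replicate numbers come from the sample titles. What the authors deposited is a read count signal, normalized, for each gene and library. Per the submitters' processing notes the build was mm9 and the tools were DESeq, HTSeq and TopHat; versions, strand and filters are not stated there and were not given in the sources used. Overlapping, antisense and near-identical genes are therefore uncertain. The deposited values are whole multiples of 1 step per library, and dividing by that step gave the reads and so the depth: 94.1% to 100% of values above 0 came out within 0.1 of a whole number. Library depth was 9.5 to 48.6 M reads; the deeper libraries are the more precise ones. The TGF-β time course table was not used here.

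The log2 of the value plus 1 was fitted in R 4.3.3 by limma 3.58.1, whose prior variance followed the level (the trend). This scale understates the change of low genes. The model held all 20 JNKi and DMSO libraries, 1 block for each replicate number within a time and 1 JNKi effect per time; contrasts gave the effect at 96 h and its difference from 72 h and from 7 days, and DMSO at 72 h was set against 24 h in a model of group means. All tests are two-sided. Benjamini-Hochberg adjustment ran over the 12586 genes, and 0.05 was the threshold. SE and 95% intervals are the model's. Fits were also run on simulated data in which libraries with the same replicate number shared a deviation at every time. Such data assume the pairing, so they cannot decide whether the block suits these libraries. Running edgeR 4.0.16 on the recovered reads with the block called 197 genes at 96 h, and DESeq2 1.42.0 called 149.

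The block is used because differences were defined within replicate numbers; the labels do not say what a number marks. As a check of the pairing, the differences between replicates 1 and 2 in JNKi and in DMSO were correlated over 9605 genes with a mean of at least 200: r was 0.53 at 96 h, 0.73, 0.59 and 0.72 at 24, 48 and 72 h, and 0.07 at 7 days, where the numbers show no pairing. Replicates were no duplicates of each other (chi-square per degree of freedom of 11.7 in JNKi and 23.7 in DMSO at 96 h).

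The comparison, its members, the gene lists and the promoter motifs were chosen with earlier results of these data known. Genes named are the 12 largest differences each way past the test with a mean of at least 50 and the same sign in both pairs, a set always named (Fn1, Vim, Cdh1 and Cdh2; Zeb1, Zeb2 and Snai1; Jun, Mapk9 and Mapk8), up to 4 members of each list, and the 4 largest differences each way between times. Other genes past the test, and Krt5, were named after their values were seen. Some genes that these rules name are not reported here. Promoter windows were matched by symbol or synonym in RefSeq (GRCm38.p6) for 9927 genes, of which 2035 had more than 1 window.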

Additional observations from a re-analysis of the deposited data

Results flagged for a closer look

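The genes below differ in their JNKi effect between 96 h and another time, by the difference of the effects in the blocked model (limma, Benjamini-Hochberg adjusted p under 0.05 over all genes tested). Each value is the log2 effect (JNKi minus DMSO) at 96 h minus that at the other time, so a negative value means that the gene was less positive or more negative at 96 h. Each group has 2 libraries, and replicate 1 of JNKi at 7 days is the shallowest library, with 9.5 M reads. Whether its depth plays a part was not tested.

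Against 72 h the difference was -0.61 for Cav1. Against 7 days Cav1 differed by -0.59.

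Among genes that rose at 96 h and were higher still at 7 days, the difference from 7 days was -1.84 for S100g, -1.32 for Ccl7, -1.16 for Mmp13, -1.15 for Abcc2, -1.04 for Serpina1b and -0.80 for Tnip3. It was -0.62 for 5730469M10Rik, -0.59 for Il1rl1, -0.56 for Gclm, -0.42 for Fth1 and -0.38 for Esd. Gclm, Fth1 and the transporter Abcc2 were thus further above DMSO at 7 days than at 96 h. Nqo1, the other oxidative-stress gene past the test at 96 h, went the other way, with 1.49 at 96 h and 0.96 at 7 days. Its difference did not pass (0.52, limma adjusted p = 0.402).

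Among genes that fell at 96 h and were lower still at 7 days, the difference was 1.00 for Tnc, 0.87 for Tagln, 0.63 for Ltbp4, 0.60 for Filip1l and 0.51 for Fhl2. It was 0.50 for Zyx, 0.43 for Tgm2, 0.42 for Myadm, 0.42 for Pdlim7 and 0.34 for Srf. This set holds Srf and 4 other genes of the contractile list.

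Effects seen at 96 h that were near 0 or of the other sign at 7 days belonged to Tiparp (difference 1.83), Ppbp (1.00), Orm1 (0.72), Cxcl1 (0.52) and Mal (0.46) among the higher genes. Among the lower genes they belonged to Col7a1 (-0.62), Lama5 (-0.34) and Nbeal2 (-0.29).

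Genes named for their difference between times or their place in the pathway, but not past the test at 96 h, were Rmrp (-6.31), Snord17 (-3.28), Rapgef3 (-2.04), Gm10768 (-2.02), Gpbar1 (2.58), 1500009C09Rik (2.01), Chst4 (1.60), Jun (0.43) and Zeb1 (0.40). Rmrp and Snord17 are non-coding RNAs; Rmrp had 17.7 and 37.2 normalized read counts with JNKi at 96 h, against 87.7 and 36.4 with DMSO, so its libraries overlapped. At 7 days 1 library carries both values: Rmrp had 2104.5 and 34.3 with JNKi, against 5 and 8.1 with DMSO, and Snord17 had 293.9 and 14.7 with JNKi, against 21.9 and 6.1 with DMSO. Without replicate pair 1 of 7 days the difference was -3.06 for Rmrp (adjusted p = 0.0588) and -2.01 for Snord17 (adjusted p = 0.188), and neither passed. Jun and Zeb1 were more negative at 7 days, by effects of -0.57 and -0.55.

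Of the other genes above, Cxcl1, Esd, Jun, Mal, Nbeal2, S100g, Serpina1b, Tnip3 and Zeb1 did not pass against 7 days without pair 1 of 7 days (adjusted p from 0.0694 for Mal to 0.149 for Tnip3). Without pair 2 of 7 days Ccl7, Mal, Mmp13, Orm1, Srf and Tnip3 did not pass (0.0517 for Mmp13 to 0.0847 for Ccl7). The sign of the difference was the same without either pair.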

How the results depend on the processing

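The replicate block and the trend decide how many genes pass at 96 h, and with 1 pair left the lone pair is assumed to vary like the pairs of other times. Against 104 genes, the count was 1 with no replicate block, 1 with a block shared by all times, 1 in edgeR with no block, 3 in limma without the trend, 62 with no filter, 197 in edgeR with the block, 364 without the 4 libraries of 7 days and 14 at a log2 difference of at least 1. Leaving out replicate pairs gave 10 (without replicate 1) to 41 (without replicate 2), and leaving out single libraries without the block gave 0; the range over these settings was 0 to 41. In the fit without the block, 99 of the 104 genes had an unadjusted p under 0.05. Each of the 104 kept its direction in the alternatives run, except Clrn3 without the block and without DMSO replicate 2 (-0.0707). These alternatives reuse the 96 h values that chose the genes, so the kept directions are no separate support.

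For the difference between 96 h and 72 h (1 gene), the count was 3 with a pseudocount of 8, 3 with TMM rescaling, 8 in edgeR with the block, and 0 with no filter, without the trend, without the block or in edgeR without the block; leave-one-out counts ran from 0 to 8. For the difference between 96 h and 7 days (801 genes), it was 475 with no filter, 0 without the trend, 18 without the block and 19 in edgeR without the block; leave-one-out counts ran from 135 to 1484. Genes changing with time in DMSO (6258) stayed between 4281 and 6447 in the alternatives run.

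Signs turned for genes not past the test when 1 replicate or library was left out. Without 1 replicate pair the log2 difference ran from -0.0115 to 0.0305 for Mapk8, -0.291 to 0.00686 for Jun, -0.162 to 0.391 for Snai1, -0.0699 to 0.0316 for Zeb2, -0.0912 to 1.26 for 1500009C09Rik, -2.25 to 0.0305 for Rmrp and -0.805 to 0.113 for Rapgef3. Without the block and without 1 library it turned for Mapk8 (-0.0154 and -0.0364), Jun (0.113), Cdh1 (0.0467), Snai1 (-0.267), Zeb2 (0.0373) and Rapgef3 (0.184). Leaving out the libraries of 24, 48 or 72 h, or 1 pair of 72 h or 7 days, was chosen after seeing the data. The cause of these shifts was not tested. With 2 libraries a group, differences at low levels are also limited by depth.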
